A study of Mus musculus with 7 samples.

Results

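The 9 genes that set, remove or read methylation of lysine 36 of histone H3 (H3K36) were followed in lineage depleted (lin-) bone marrow cells of mice with and without HRP-2, and 0 of the 9 passed the test for a difference between the genotypes, where 0.0178% of all genes tested passed it. At so low a share over all genes, 0 of 9 says nothing particular about these genes, and their levels and intervals are what the data give. They were taken as a list by gene symbol, 9 of the 25033 symbols in the files, and all 9 passed the filter on low counts that left 11265 genes tested. The samples were 3 *HRP-2* wild type (*Hrp2*+/+) and 4 *HRP-2* knockout (*Hrp2*-/-) mice of 6 to 8 weeks of age. The knockout was the systemic tm1b allele on C57BL/6N, which is present in every cell of the animal. The knockout animals sampled were those that lived to this age, and the other group is labelled WT. Lin- cells are what remains of the marrow after cells with markers of mature lineages are taken away, and in such a mixture fewer cells of a type and less RNA per cell cannot be told apart. Each library was made from 500 ng of RNA by priming on the poly(A) tail, so that a transcript gives 1 fragment near its 3′ end.

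HRP-2 carries an N-terminal PWWP domain, a fold that binds nucleosomes methylated at H3K36, and the enzymes followed here write and erase that mark. SETD2 travels with elongating RNA polymerase II and places the trimethyl mark over the bodies of transcribed genes, whereas NSD1 and ASH1L place the mono- and dimethyl forms. KDM2A and KDM2B remove the lower methylation states, KDM4A, KDM4B and KDM4C remove the trimethyl form and also act on lysine 9 of histone H3, and MORF4L1 (MRG15) reads the mark through a chromodomain and activates ASH1L. In the marrow, SETD2 and ASH1L are known to sustain blood stem cells, and KDM2B belongs to a variant Polycomb complex.

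The *HRP-2* transcript itself, listed as *Hdgfl2*, gave 228, 156 and 168 reads in wild type replicates 1 to 3 and 13, 3, 8 and 2 reads in knockout replicates 1 to 4, so the labels and the targeted gene go together in every mouse. The libraries held from 3525665 to 5605158 reads assigned to genes. The ribosomal RNA precursor *Rn45s* took from 4.94% (knockout replicate 1) to 20.6% (wild type replicate 2) of these reads. *Xist* stood at 0.561 CPM, read counts scaled to a common library size with edgeR's TMM factors, in knockout replicate 3 and between 229.0 and 302.8 CPM in the other 6 mice, and this mouse also carried reads of Y-linked genes (*Ddx3y* at 104.5 CPM). Without it, 0 of the 9 genes passed the threshold either. None of 8 lists of cell type markers held a gene past the threshold, beside 0.0178% of all genes tested. Summed markers of progenitors ran from 6563 to 8433 CPM in wild type and from 6192 to 8096 CPM in knockout mice. The megakaryocyte list ran from 107.7 to 948.5 CPM in knockout and from 245.2 to 388.7 CPM in wild type mice, the widest relative spread among the 8 lists. The erythroid list ran from 286.3 to 373.0 against 255.4 to 453.9 CPM, the B cell list from 101.5 to 337.1 against 75.7 to 212.8 CPM, and the T and NK cell list from 389.2 to 518.5 against 460.9 to 508.3 CPM (knockout against wild type). The neutrophil list ran from 9487 to 24540 CPM in knockout and from 8507 to 11330 CPM in wild type mice, and the eosinophil, basophil and mast cell list and the macrophage list lay lower in all knockout mice (1875 to 2561 against 2725 to 2854 CPM, and 332.3 to 403.4 against 449.7 to 466.5 CPM). For single genes, the CPM ranges of the genotypes were separate in 5.16% of all genes tested, and the sums were not tested. The part of these lists in the values of the 9 genes was not tested. *Hbb-bt* and *Hba-a1* were at 0 in every mouse.

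The 9 genes lie on 7 chromosomes of GRCm38 in GENCODE M21 annotation. *Setd2* spans chr9:110532597-110618633 and *Morf4l1* chr9:90091665-90114774, 20.4 Mb apart on the same chromosome. *Kdm4c* (chr4:74242497-74405860) and *Kdm4a* (chr4:118136957-118180043) share chromosome 4 at a distance of 43.7 Mb. *Nsd1* lies at chr13:55209782-55318325, *Ash1l* at chr3:88950622-89079375, *Kdm2a* at chr19:4314419-4398285 and *Kdm2b* at chr5:122870665-122989823. *Kdm4b* (chr17:56326062-56402870) is the member on the chromosome of the knocked-out gene: it starts 225.5 kb beyond the end of *Hdgfl2*, on the same strand.

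RefSeq promoter windows of 300 bases (250 before to 50 after a start site, GRCm38.p6) were at hand for 5 of the 9 genes, and they are shown because the CpG content of the starts differs widely within the set. A CpG is the letters CG, which read the same on both strands, and the KDM2 proteins themselves bind unmethylated CpG through a CXXC zinc finger. The median over 32817 promoter windows was 7 CpG. The *Setd2* window held 38 CpG, a number reached by 4.96% of all windows. *Kdm2b* has starts far apart: its most upstream window held 28 CpG (reached by 14.2% of windows) and the internal start that lies furthest downstream held 49 (reached by 1.02%). The *Kdm4a* and *Morf4l1* windows held 13 each, and the windows of *Kdm4c* held 0 and 28. The windows of *Setd2* and of the outer *Kdm2b* starts are shown 5′ to 3′ on the strand of the gene, with each CpG in capitals.
Setd2, chr9:110532347-110532646, plus strand: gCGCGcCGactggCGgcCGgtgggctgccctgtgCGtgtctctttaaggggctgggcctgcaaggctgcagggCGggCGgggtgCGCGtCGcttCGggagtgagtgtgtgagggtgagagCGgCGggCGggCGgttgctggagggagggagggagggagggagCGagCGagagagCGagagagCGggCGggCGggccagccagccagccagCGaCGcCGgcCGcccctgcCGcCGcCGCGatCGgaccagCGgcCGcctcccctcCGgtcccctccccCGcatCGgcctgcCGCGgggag
Kdm2b upstream start, chr5:122989050-122989349, minus strand: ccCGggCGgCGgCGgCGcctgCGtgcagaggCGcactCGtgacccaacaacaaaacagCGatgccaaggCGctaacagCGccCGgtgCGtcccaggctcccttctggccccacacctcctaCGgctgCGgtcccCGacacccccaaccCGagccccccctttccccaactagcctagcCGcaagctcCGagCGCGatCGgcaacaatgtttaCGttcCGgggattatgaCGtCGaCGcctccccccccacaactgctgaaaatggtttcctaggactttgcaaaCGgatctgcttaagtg
Kdm2b internal start, chr5:122900301-122900600, minus strand: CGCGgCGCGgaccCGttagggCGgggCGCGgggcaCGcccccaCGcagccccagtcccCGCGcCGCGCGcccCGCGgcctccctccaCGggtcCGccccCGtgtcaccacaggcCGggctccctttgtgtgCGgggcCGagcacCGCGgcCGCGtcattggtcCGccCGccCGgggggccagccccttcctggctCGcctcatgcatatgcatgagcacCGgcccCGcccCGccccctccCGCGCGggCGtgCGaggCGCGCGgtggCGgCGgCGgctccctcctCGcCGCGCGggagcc

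The internal *Kdm2b* start bears on what the reads can show. Of the 8 protein-coding *Kdm2b* transcripts annotated, 3 start more than 5 kb inside the gene, and 1 of these ends within 500 nt of the end of the gene. Forms of KDM2B that start inside the gene lack the demethylase domain, and a read at a shared 3′ end does not say from which start its transcript came. *Kdm2a* has 6 coding transcripts with 6 separate groups of 3′ ends. Of these transcripts 2 start more than 5 kb inside the gene, and 0 of the 2 end within 500 nt of its end. Such internal coding starts were also annotated for *Setd2* and *Kdm4c* (2 each) and for *Ash1l* and *Kdm4b* (1 each). In each of these genes 1 such transcript ends within 500 nt of the end of the gene. The values given here are therefore levels of all transcripts of a gene together.

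The most abundant member was *Kdm2a* and the least abundant was *Kdm4c*. The mean level over the 7 mice was 155.1 CPM for *Kdm2a*, 132.3 for *Setd2*, 120.1 for *Nsd1*, 102.9 for *Kdm4a*, 71.2 for *Ash1l*, 50.5 for *Morf4l1*, 23.2 for *Kdm2b*, 15.2 for *Kdm4b* and 5.001 for *Kdm4c*. The first 4 places were not clearly separated: *Kdm2a* was above *Setd2* in 6 of 7 mice, *Setd2* above *Nsd1* in 5 of 7 and *Nsd1* above *Kdm4a* in 6 of 7. *Kdm4a* was above *Ash1l* in 7 of 7 mice and *Ash1l* above *Morf4l1* in 6 of 7. Below *Morf4l1* each gene was above the next in 7 of 7 mice. These are levels in CPM without division by length, because the library gives 1 fragment per transcript. Divided by the length of the longest coding transcript the order changed at the top, with *Morf4l1* first at 26.9 CPM per kb, *Kdm4a* second at 22.1, *Kdm2a* at 18.1 and *Setd2* at 15.8, and the last 3 places kept *Kdm2b*, *Kdm4b* and *Kdm4c* (4.48, 3.32 and 1.19 CPM per kb).

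**Figure D1:**
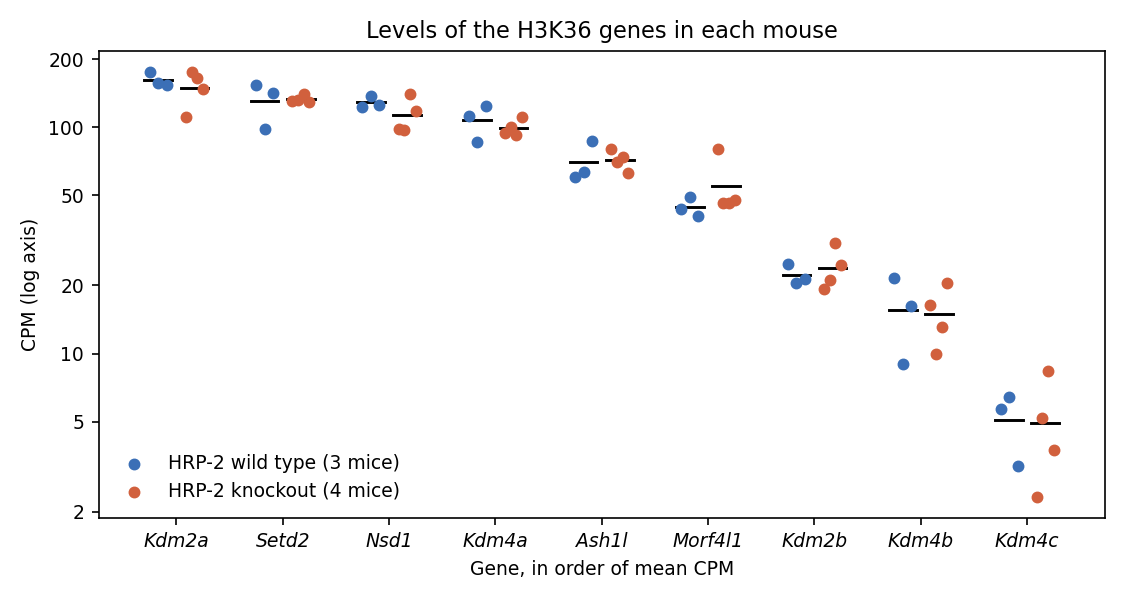
CPM of the 9 genes on a log axis, in order of mean level, with 1 point per mouse (3 wild type, 4 knockout) and a line at the mean of each genotype. The points of the genotypes overlap for every gene, and the levels fall from 155.1 CPM for *Kdm2a* to 5.001 CPM for *Kdm4c*.

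Among the writers, *Setd2*, the gene of the enzyme of H3K36 trimethylation, had an estimate close to 0. It stood at 153.6, 98.6 and 141.4 CPM in the wild type mice and at 130.8, 132.6, 140.5 and 129.1 CPM in the knockout mice. The low value was that of wild type replicate 2, the library with the highest share of *Rn45s*, whose part in it was not tested, and the knockout values fell inside the wild type range. The means were 131.2 ± 28.9 (SD, n = 3) and 133.2 ± 5.06 CPM (SD, n = 4), and the log2 ratio was 0.02 (standard error 0.15, 95% interval from −0.30 to 0.34, edgeR adjusted p = 0.999). In linear terms this interval runs from 0.813 to 1.27 times the wild type level.

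*Nsd1*, the gene of a dimethyltransferase, had the most negative estimate of the 9. Its values were 123.3, 138.0 and 125.7 CPM in wild type and 98.5, 97.0, 140.7 and 117.6 CPM in knockout mice. Of the knockout mice, replicates 1, 2 and 4 lay below all wild type mice, and replicate 3 lay above them all. The log2 ratio of knockout to wild type was −0.18 (standard error 0.15, 95% interval from −0.50 to 0.13, edgeR adjusted p = 0.999). Without knockout replicate 3 it was −0.31, with an edgeR unadjusted p of 0.0507 and an edgeR adjusted p of 0.9995. That unadjusted p was the smallest of any member in any fit, with 144 member values in the other fits searched. Knockout replicate 3 was also the mouse with low *Xist* and with reads of Y-linked genes, whose part was not tested.

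*Ash1l*, whose product methylates H3K36 at developmental genes such as the *Hoxa* cluster, stood at 60.1, 63.6 and 86.9 CPM in wild type and at 80.1, 70.5, 74.2 and 63.0 CPM in knockout mice. The knockout values lay inside the wild type range in all 4 mice. The log2 ratio of knockout to wild type was 0.04 (standard error 0.17, 95% interval from −0.31 to 0.39, edgeR adjusted p = 0.999). *Dap3* on the opposite strand overlaps an annotated exon of *Ash1l* and had from 246 to 384 reads, and since the counted strand is not stated, reads of the pair cannot be told apart where they overlap.

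The demethylase genes of the KDM2 family were dominated by *Kdm2a*, which supplied from 84.2% to 89.2% of their summed CPM in the 7 mice. *Kdm2a* stood at 175.1, 157.6 and 154.4 CPM in wild type and at 111.5, 175.6, 164.4 and 147.3 CPM in knockout mice. Knockout replicate 1 was the low mouse and the other knockout values spanned the wild type range. Its log2 ratio was −0.12 (standard error 0.15, 95% interval from −0.44 to 0.21), and without knockout replicate 1 it was 0.00.

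*Kdm2b* stood at 24.8, 20.4 and 21.3 CPM in wild type and at 19.2, 21.2, 30.8 and 24.7 CPM in knockout mice. The highest level was that of knockout replicate 3, and the lowest was that of knockout replicate 1. The log2 ratio of knockout to wild type was 0.11 (standard error 0.23, 95% interval from −0.36 to 0.59, edgeR adjusted p = 0.999), and −0.04 without knockout replicate 3. *Rnf34* on the opposite strand shares an exon region with *Kdm2b* and had from 75 to 177 reads, which is as many as *Kdm2b* itself had (73 to 165).

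In the KDM4 family *Kdm4a* carried from 80.5% to 86.8% of the summed CPM. It stood at 112.5, 85.7 and 123.8 CPM in wild type and at 94.2, 99.95, 92.3 and 111.6 CPM in knockout mice. All knockout values fell between the lowest and the highest wild type mouse, and wild type replicate 2 was again the low one. The means were 107.3 ± 19.6 (SD, n = 3) and 99.5 ± 8.69 CPM (SD, n = 4), and the log2 ratio was −0.11 (standard error 0.15, 95% interval from −0.43 to 0.21, edgeR adjusted p = 0.999).

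*Kdm4b*, the neighbour of the knocked-out gene on chromosome 17, varied widely between mice of the same genotype. It stood at 21.5, 8.96 and 16.2 CPM in wild type mice and at 16.3, 9.97, 13.1 and 20.4 CPM in knockout mice. All knockout mice fell within the wild type range, whose low end was wild type replicate 2 with 32 reads and whose high end was wild type replicate 1 with 98 reads. The log2 ratio of knockout to wild type was −0.07 (standard error 0.31, 95% interval from −0.73 to 0.58, edgeR adjusted p = 0.999), an interval that runs from 0.604 to 1.499 times the wild type level. For comparison, the log2 ratio of *Hdgfl2* was −5.09 (95% interval from −5.80 to −4.37, edgeR adjusted p = 1.38e-07). The coefficient of variation of *Kdm4b* within genotypes was 34.55%, against 12.1% from counting alone.

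*Kdm4c* was the gene with the fewest reads, between 12 and 45 per mouse, and a floor of 3 reads equals 0.561 to 0.84 CPM. Its levels were 5.70, 6.44 and 3.19 CPM in wild type and 2.33, 5.20, 8.41 and 3.74 CPM in knockout mice. The extremes were both knockout mice, replicate 1 at the bottom and replicate 3 at the top. The log2 fold change of −0.05 had a standard error of 0.49 and a 95% interval from −1.07 to 0.98, which is from 0.475 to 1.966 times the wild type level. The coefficient of variation was 46.1% within genotypes, against 21.05% from counting.

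*Morf4l1*, the chromodomain reader, had the largest estimate of the 9, and 1 mouse made most of it. It stood at 43.7, 49.0 and 40.4 CPM in wild type mice. In the knockout mice it stood at 80.3, 46.3, 46.3 and 47.8 CPM, so that knockout replicate 1 was far above the others and the remaining 3 fell inside the wild type range. The means were 44.3 ± 4.35 (SD, n = 3) and 55.2 ± 16.7 CPM (SD, n = 4), and the log2 fold change was 0.32 (standard error 0.21, 95% interval from −0.11 to 0.75, edgeR adjusted p = 0.999). An absolute log2 fold change of at least 0.32 was found for 22.3% of all genes tested. Without knockout replicate 1 the value of *Morf4l1* was 0.08. This mouse had the lowest share of *Rn45s*, and with that share as a covariate the log2 ratio was 0.24. Its near-identical copies are counted apart in the files, *Morf4l1-ps1* with 2.80 to 12.05 CPM and *Morf4l1b* with 1.12 to 3.19 CPM, and the highest value of *Morf4l1-ps1* was also in knockout replicate 1, so *Morf4l1* is uncertain by the reads that its copies may take or give.

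**Figure D2:**
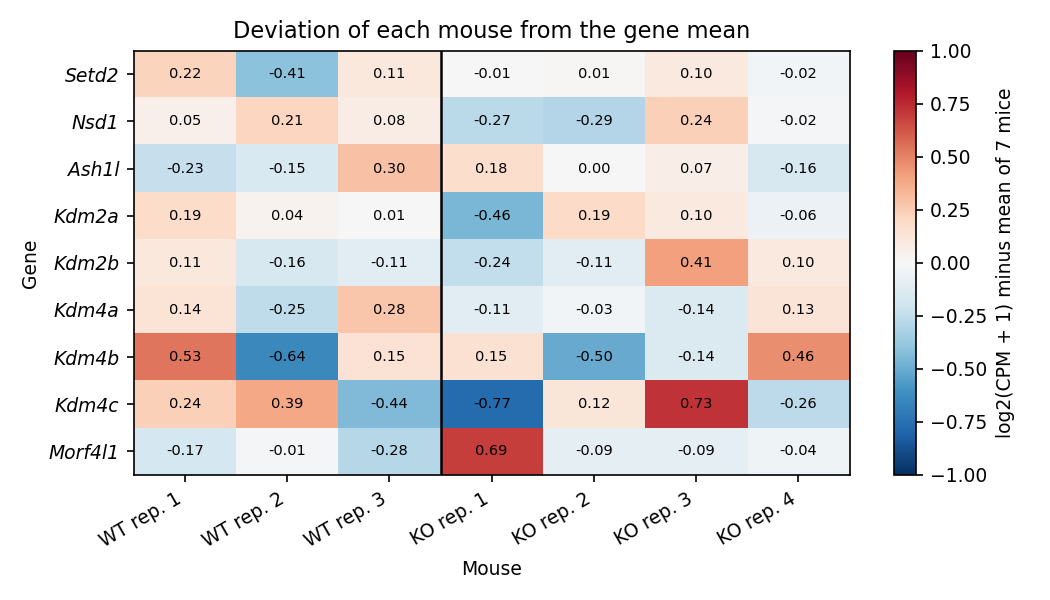
Deviation of log2(CPM + 1) in each mouse from the mean of the 7 mice, genes in rows by role and mice in columns, with a line between wild type (left) and knockout (right). The strongest colours stand for single mice, such as 0.69 for *Morf4l1* and −0.77 for *Kdm4c* in knockout replicate 1.

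Read together, 0 of the 9 genes had an edgeR adjusted p under 0.25, where 0.0178% of the genes tested did. At an unadjusted p-value under 0.05 there were also 0, against 3.63% of all genes tested, and DESeq2 gave 0 at both thresholds. For 0 of the 9 were the genotypes' CPM ranges separate, against 5.16% of all genes. Of the 9, 4 were higher and 5 lower in the knockout mice, with a median log2 fold change of −0.05 beside −0.001 for all genes tested, and a median absolute log2 fold change of 0.11 beside 0.15. The two-sided exact permutation tests of log2(CPM + 1) over the 35 splits of the mice, in which the smallest possible p is 0.0286, gave p-values from 0.257 for *Nsd1* to 0.971 for *Kdm4b*.

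**Figure D3:**
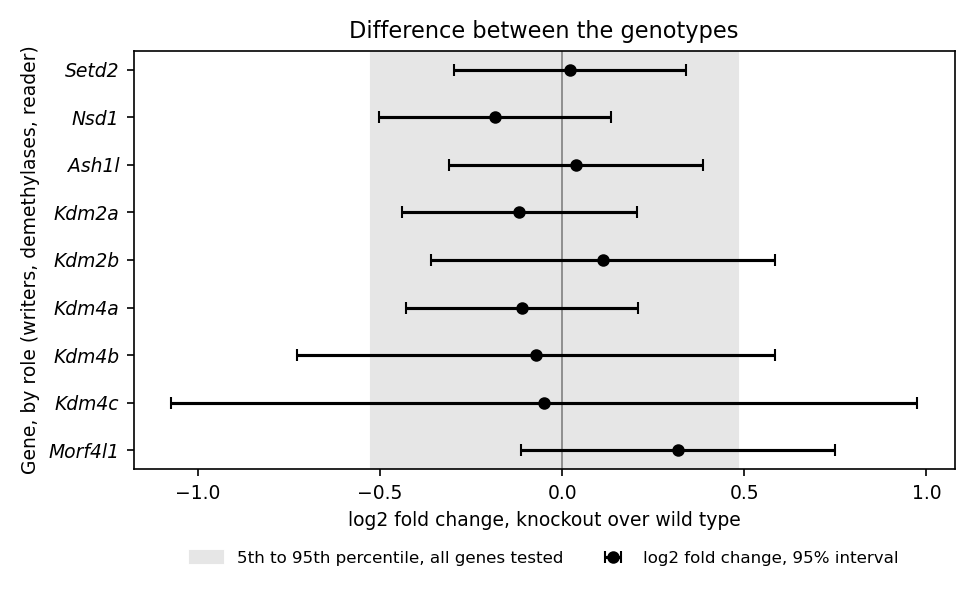
Log2 fold change of each gene, knockout over wild type, with its 95% interval from edgeR's quasi-likelihood fit, and in grey the range between the 5th and 95th percentile of all genes tested (−0.53 to 0.48). Every interval includes 0, and the widest is that of *Kdm4c* (−1.07 to 0.98).

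The intervals differed in width between the genes. For *Setd2*, *Nsd1*, *Ash1l*, *Kdm2a* and *Kdm4a*, each with at least 2229 reads over the 7 mice, the intervals reached at most −0.50 on the low side and 0.39 on the high side, which is from 0.706 to 1.31 times the wild type level. Within genotypes these 5 genes varied by 13.4% to 15.2%, with 3.81% to 5.60% expected from counting. The wider intervals belonged to *Kdm2b*, *Kdm4b* and *Kdm4c*, with 731, 475 and 158 reads in all, and to *Morf4l1*, with 1602 reads and 1 mouse far from the rest.

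The transcript levels of the writers and of the demethylases were described by sums of CPM. These are RNA levels and not enzyme activities, and the genes within each sum act on different methylation states. The 3 writers together stood at 337.0, 300.2 and 353.9 CPM in wild type and at 309.4, 300.1, 355.4 and 309.7 CPM in knockout mice. The 5 demethylases together stood at 339.6, 279.2 and 318.8 CPM in wild type and at 243.7, 311.9, 309.1 and 307.7 CPM in knockout mice. The genotypes overlapped for both sums, and knockout replicate 1, the low mouse in the demethylase sum, was also the low mouse in *Kdm2a*. The ratio of writers to demethylases was 0.992, 1.07 and 1.11 in wild type and 1.27, 0.962, 1.15 and 1.01 in knockout mice, with means of 1.06 ± 0.0605 (SD, n = 3) and 1.097 ± 0.14 (SD, n = 4). Without knockout replicate 1 the knockout mean was 1.039, below that of the wild type mice, and without wild type replicate 1 the wild type mean was 1.093. It was given without a test, as the genes were chosen with earlier results of these data known.

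The likeness of the genes' patterns across the mice was described by a distance. When each gene was set to mean 0 and standard deviation 1 over the 7 mice, the root-mean-square distance of a member to the mean profile of the 9 was smallest for *Kdm2b* (0.575) and *Setd2* (0.607) and largest for *Morf4l1* (1.62). The genes outside the list whose profile was most like that mean were *Tinagl1* (0.289), *Tef* (0.31) and *2310033P09Rik* (0.31), over 7 mice. They were found among 11265 genes with few mice, and the likeness is a description only.

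The rest of the H3K36 pathway was followed in 53 genes of 7 lists, and 0 of them passed the threshold, beside 0.0178% of all genes tested. Of these, 50 were tested, 30 higher and 20 lower in the knockout mice, and DESeq2 also called 0. The median log2 fold change was 0.04. At an unadjusted p-value under 0.05 there was 1 gene, against 3.63% of all genes tested, and the genotypes did not overlap for 3, against 5.16%.

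Among other H3K36 methyltransferases, 6 of 6 were tested and their log2 fold changes lay between −0.03 and 0.10. The smallest p-values in that list were those of *Setd3* (0.08, standard error 0.16), whose product is best known as an actin histidine methyltransferase, and *Smyd2* (0.10, standard error 0.22). Of the other demethylases 2 of 3 were tested: *Riox1* averaged 78.7 ± 16.1 CPM (SD, n = 3) in the wild type mice and 98.0 ± 17.8 CPM (SD, n = 4) in the knockout mice, and *Kdm8* averaged 5.69 ± 1.77 (SD, n = 3) and 4.36 ± 1.08 CPM (SD, n = 4). *Kdm4d*, a KDM4 gene known from testis, had between 0 and 3 reads per mouse and was at or under the floor of 3 reads in each.

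The list of elongation factors that work with SETD2 held the gene with the smallest p-value of the 50 tested. *Ctr9*, a scaffold of the PAF1 complex, stood at 108.4, 94.4 and 84.5 CPM in wild type and at 107.3, 111.8, 126.7 and 131.3 CPM in knockout mice. Wild type replicate 1 lay above knockout replicate 1, and the other values were separated. Its log2 ratio was 0.32 (standard error 0.14, unadjusted p = 0.0429, edgeR adjusted p = 0.999). *Supt6*, which encodes the histone chaperone SPT6 that helps to bring SETD2 to chromatin, had a log2 ratio of 0.24 (standard error 0.18). *Polr2a*, the gene of the largest subunit of RNA polymerase II, was the gene of this list whose genotypes did not overlap, at 236.7, 239.1 and 234.3 CPM in wild type and 251.5, 251.9, 249.6 and 281.0 CPM in knockout mice. Its log2 ratio was 0.13 (standard error 0.12, edgeR adjusted p = 0.999). The median of the 6 genes of this list was 0.15.

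In the complex of KDM2B, variant PRC1.1, 8 of 10 genes were tested, with log2 fold changes from −0.16 to 0.29. *Skp1a* stood at 131.0, 134.7 and 133.1 CPM in wild type and at 145.9, 160.6, 145.7 and 137.0 CPM in knockout mice, without overlap, and its log2 fold change of 0.15 (standard error 0.13) came with an edgeR adjusted p of 0.999. *Ring1* had a log2 ratio of 0.29 (standard error 0.37). *Pcgf1*, the subunit that defines the complex, had 4 to 11 reads and *Rybp* 0 to 4 reads per mouse, and neither passed the filter. In the complexes of MORF4L1, the NuA4 acetyltransferase and the SIN3B deacetylase, 10 of 10 genes were tested, from −0.24 for *Trrap* (standard error 0.21) to 0.23. *Sin3b* stood at 188.9, 186.8 and 176.7 CPM in wild type and at 207.7, 190.1, 217.9 and 194.8 CPM in knockout mice, again without overlap, and the log2 ratio was 0.14 (standard error 0.13, edgeR adjusted p = 0.999).

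Of 16 readers of the mark other than HRP-2, all tested, 7 were higher and 9 lower, with a median log2 fold change of −0.04. *Pwwp2a*, a PWWP protein bound to H2A.Z nucleosomes, stood at 62.1, 60.8 and 69.1 CPM in wild type and at 57.5, 33.5, 64.3 and 38.1 CPM in knockout mice. Knockout replicates 1, 2 and 4 lay below all wild type mice and replicate 3 lay inside the wild type range, and the log2 ratio was −0.40 (standard error 0.21, 95% interval from −0.83 to 0.03). *Hdgfl3*, of the same protein family as HRP-2, had a log2 ratio of −0.39 (standard error 0.27, 95% interval from −0.97 to 0.18). The genes of the histone variant H3.3 stood at 73.2 ± 2.34 and 69.4 ± 6.75 CPM for *H3f3a* and at 1129 ± 135 and 1274 ± 207 CPM for *H3f3b* (SD, n = 3 wild type and n = 4 knockout).

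**Figure D4:**
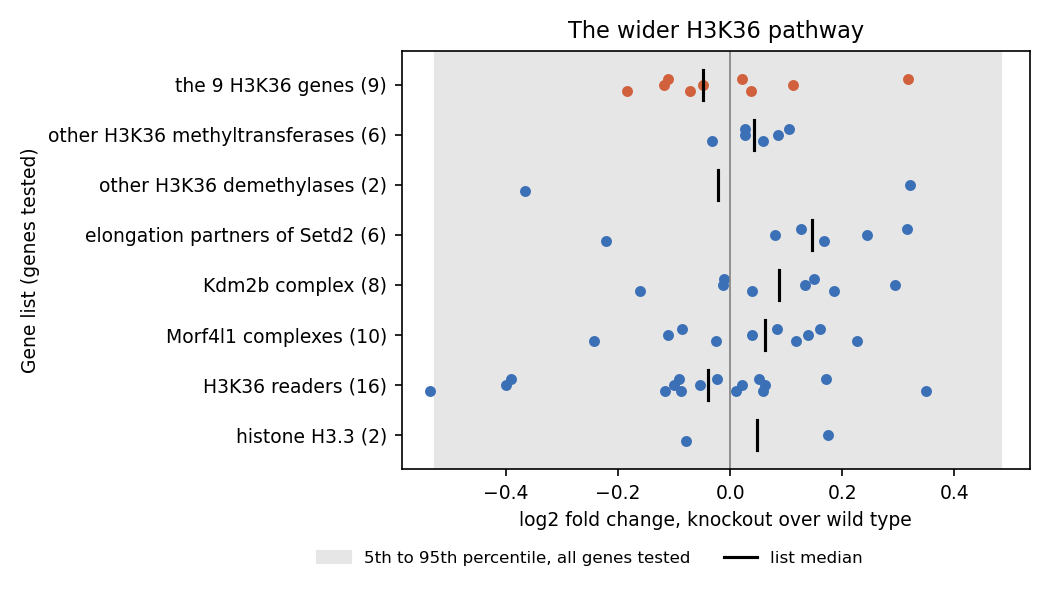
Log2 fold change, knockout over wild type, of the 9 genes and of the 7 further lists, 1 point per gene tested with the number tested in brackets, a line at each list's median, and in grey the 5th to 95th percentile of all genes tested (−0.53 to 0.48). The list medians run from −0.05 for the 9 genes to 0.15 for the elongation partners of *Setd2*, and all points but *Pwwp2b* at −0.54 lie within the grey range.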

How the data were processed

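RNA-seq libraries of lin- marrow from 3 wild type and 4 knockout mice were analysed, with groups and replicate numbers from the sample titles. According to the methods, STAR was used by the authors for alignment (GRCm38) and for gene quantification on Ensembl annotation, and DESeq2 for the authors' own comparison. The files deposited hold raw counts by gene symbol, without normalization, and 5 tally rows per file were left out (27.0% to 31.6% of reads on no gene, 1.99% to 2.40% ambiguous). Of the symbols 97.6% are in GENCODE M21, which gave coordinates. The counted strand is not given in the sources used here.

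Genes were filtered (filterByExpr), scaled (TMM) and tested by robust quasi-likelihood with edgeR 4.0.16 under R 4.3.3, with Benjamini-Hochberg adjustment. Genes counted as past the threshold at an edgeR adjusted p-value under 0.25, the false discovery rate that the study applied with DESeq2, with 0.05 beside it. Standard errors are the log2 fold change over the square root of F, with 95% intervals from the moderated degrees of freedom. The fit was tested on simulated data. Alternatives were DESeq2 1.42.0, limma-voom (limma 3.58.1), other scalings and filters, a replicate block, *Rn45s* left out or its share as a covariate, and each mouse left out.

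The members and lists were chosen with earlier results of these data known, and the lists were written by hand. Named genes were the 9 members, *Hdgfl2*, *Rn45s*, *Xist* with the Y-linked genes (here *Ddx3y*), the 2 genes of smallest p-value in each of 7 lists, and the 3 genes with the profile most like the members. *Kdm4d*, *Pcgf1*, *Rybp*, *Pwwp2b*, *Polr2a*, the copies of *Morf4l1*, overlapping genes and the markers at 0 were named after their values were seen. Replicates are biological replicates by their labels and single animals according to the study, and libraries within a genotype differed beyond sampling noise in every pair (chi-square per degree of freedom from 7.80 to 48.9). Intervals of counting and floors cover counting error only. Same-numbered mice are different animals.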

Additional observations from a re-analysis of the deposited data

Results flagged for a closer look

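The 29 results were searched for 1 knockout mouse lying apart from its group, and 4 stood out, where chance flags about 1 in 20, here 1.45. The results were not independent, since the sums hold the values of single members, so 4 beside 1.45 does not measure an excess. *Morf4l1* in knockout replicate 1, at 80.26 CPM, had a gap to the next mouse of 0.956 of the range. The summed demethylase level was low in the same mouse, at 243.7 CPM, with a gap of 0.938 of the range. In knockout replicate 4, *Kdm8* was low at 2.741 CPM and the summed *Kdm4* level was high at 135.8 CPM. The groups of 3 wild type mice were not tested in this way.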

How the results depend on the processing

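In 16 other fits, 0 of the 9 genes and 0 of the 53 further genes were past the threshold, and the smallest adjusted p in any fit was 0.949 for a member and 0.949 for a further gene. Most members changed sign when some mouse was left out, *Nsd1* and *Morf4l1* being the exceptions. Over the 7 fits that each left out 1 mouse, the log2 fold change ran from −0.15 to 0.16 for *Setd2*, −0.31 to −0.12 for *Nsd1*, −0.0562 to 0.22 for *Ash1l*, −0.20 to 0.0033 for *Kdm2a*, −0.0358 to 0.21 for *Kdm2b*, −0.25 to 0.0033 for *Kdm4a*, −0.34 to 0.25 for *Kdm4b*, −0.45 to 0.19 for *Kdm4c* and 0.08 to 0.39 for *Morf4l1*. With *Rn45s* share added as covariate it was −0.0130 for *Setd2*, −0.0177 for *Ash1l* and 0.11 for *Kdm4c*, on the other side of 0; the cause was not tested. In the remaining fits that kept all mice every member kept its direction. Other scalings moved the median of all genes by at most 0.00862, and DESeq2, which also tested more genes, moved it by 0.0211.

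The number of genes past the threshold over all genes was 2. It was 18 with DESeq2, 41 with no filter on low counts, 1 with at least 10 counts in every mouse, 8 with *Rn45s* share as covariate, and from 2 to 7 when 1 mouse was left out (7 without wild type replicate 1, 4 without knockout replicate 1). With the replicate number as a block it was 1; deviations of same-numbered mice from their genotype's mean had correlations from −0.215 to −0.0249, so the numbers do not pair the mice, and *Kdm4b* had a log2 fold change of −0.20 under the block. *Hdgfl2* ran from −5.62 to −4.86 when 1 mouse was left out, and the filter of 10 counts in every mouse leaves it out. The log2 difference in the ratio of writers to demethylases was taken between the genotypes' means of the log2 ratio, so it can depart from the mean ratios. It was 0.0435, and 0.1428 with *Setd2* as the sole writer. When 1 mouse was left out, a setting chosen after seeing the data, it ran from −0.0297 (without knockout replicate 1) to 0.1037. Without wild type replicate 1 it was −0.0028, although the mean ratios were then 1.093 in wild type and 1.097 in knockout mice. Division by transcript length left 3 of 9 members at their place in the order of levels. The variation expected from counting was largest for *Kdm4c* (21.05%) and *Kdm4b* (12.1%), and their spread within genotypes was larger still (46.1% and 34.55%).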
